A study of Mus musculus with 11 samples.

Results

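The genes described here are used as markers of cells that take part in controlling movement of the colon. These cells are enteric neurons, enteric glia and the interstitial cells of Cajal, which act as pacemakers of the gut wall. There were 28 named genes, all found in the deposited table of 22243 genes, with 34 transcripts between them. RNA of full-thickness distal colon was sequenced from 5 Nrg4-/- (KO) and 6 wild-type (WT) mice, adults of both sexes aged 11 to 12 weeks. The missing gene codes for neuregulin-4, which binds the receptor ErbB4. The genotypes had shared cages from 9 weeks of age: cage A held KO-1 and KO-8 with WT-5 and WT-7, cage B held KO-4 and KO-9 with WT-2 and WT-11, and cage C held KO-3 with WT-6 and WT-10. The labels do not give the strain, how the Nrg4 allele was made, the sex of each mouse or whether KO and WT mice were littermates.

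Enteric neurons lie in ganglia within the muscle coat and beneath the mucosa, and arise from neural crest cells that colonise the gut. They depend on RET, the receptor through which glial cell line-derived neurotrophic factor (GDNF) acts together with GFRA co-receptors. Excitatory motor neurons release acetylcholine, while inhibitory ones release nitric oxide and vasoactive intestinal peptide (VIP). Enteric glia surround the neurons, and interstitial cells of Cajal, which need the receptor tyrosine kinase KIT, drive slow waves through the chloride channel anoctamin-1 (ANO1).

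Values are TPM, transcript abundance scaled for transcript length, so that levels of different genes can be compared. TPM keeps no read depth, so no counting interval can be given; per mouse, the table's TPM added up to between 558446 and 770986. In tissue of mixed cells, fewer cells of a type and less RNA per cell cannot be told apart. Mitochondrially encoded genes took between 19.0% and 42.9% of the summed TPM. Nrg4 itself was listed at 0 TPM in every mouse of both genotypes, so its level does not check the genotype labels. Eif2s3y, a gene of the Y chromosome, was at 21.5 TPM or more in the 4 cage A mice but never above 0.0523 TPM in the other 7, so cage A and sex cannot be told apart.

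The promoters of 3 members are shown because their genes stand for a transmitter (Vip) and for regulators of the lineage (Phox2a and Hand2). Each is the RefSeq window of 250 bases before the gene's start on the plus strand of GRCm38.p6, at chr10:5638968-5639217 for Vip, chr7:101818063-101818312 for Phox2a and chr8:57320733-57320982 for Hand2. Capitals mark matches on either strand to the cAMP response element core TGACGTC, the TATA box TATAAA, the GC box GGGCGG and the CCAAT box.
Vip: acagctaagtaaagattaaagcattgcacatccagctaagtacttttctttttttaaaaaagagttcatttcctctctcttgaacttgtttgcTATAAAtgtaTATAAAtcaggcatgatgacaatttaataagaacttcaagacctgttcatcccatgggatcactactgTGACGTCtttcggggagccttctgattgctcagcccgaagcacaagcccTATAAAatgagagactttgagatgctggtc
Phox2a: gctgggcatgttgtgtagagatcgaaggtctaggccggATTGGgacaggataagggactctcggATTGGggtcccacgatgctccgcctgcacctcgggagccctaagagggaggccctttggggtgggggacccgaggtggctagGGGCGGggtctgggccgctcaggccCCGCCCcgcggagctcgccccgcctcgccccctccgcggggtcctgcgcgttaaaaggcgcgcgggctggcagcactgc
Hand2: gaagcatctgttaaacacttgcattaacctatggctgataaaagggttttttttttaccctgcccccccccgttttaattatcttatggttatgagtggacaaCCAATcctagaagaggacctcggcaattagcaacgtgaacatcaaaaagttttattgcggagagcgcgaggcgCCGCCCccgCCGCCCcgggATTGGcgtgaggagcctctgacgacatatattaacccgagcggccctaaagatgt
The Vip window held TGACGTC from 79 to 73 bases before the start and TATAAA from 30 to 25 bases before it, with 2 more TATAAA matches farther upstream. Of all 32851 promoter windows in the table, 2.78% held TGACGTC and 12.4% held TATAAA. The Phox2a window was rich in G and C (70.4%), with 2 GC boxes and 2 CCAAT boxes, all but 1 of them read on the opposite strand. The Hand2 window held 2 GC boxes and 2 CCAAT boxes. Windows were in the table for 19 of the 28 members, 25 in all; 11 of the 25 held a GC box and 11 a CCAAT box, while 32.7% and 33.8% of all windows did. None of the 19 held TTCAGCACC, a part of the RE1 element that silences neuronal genes outside neurons, a match found in 0.301% of all windows.

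Of the 28 members, 22 reached 1 TPM in at least 5 mice and were tested. The other 6 were low in these libraries. Elavl4, an RNA-binding protein of neurons, was at 0 TPM in 9 of the 11 mice and reached 0.435 TPM in WT-5. Prph, the neuronal intermediate filament peripherin, was at most 0.000280 TPM in KO mice and in WT-2, WT-5, WT-6 and WT-7. It had 0.570 TPM in WT-11 and 1.61 TPM in WT-10. Elavl3 lay between 0.298 and 0.686 TPM over the 11 mice, and Chat, which makes acetylcholine, between 0.0531 and 0.542 TPM. Gfra1, the GDNF co-receptor, reached 1.33 TPM in WT-5, and Sox10, the glial transcription factor, had 0.981 ± 0.307 TPM in KO mice (SD, n = 5) and 0.902 ± 0.284 TPM in WT mice (SD, n = 6). The table lists principal transcripts only, so transcripts of these genes outside that class are not part of these values.

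The levels of the members differed widely. Ano1 (40.0 TPM over the 11 mice) and Vip (37.2 TPM) stood highest, and their ranges overlapped. Stmn2, Snap25 and Tubb3 followed at 11.2, 9.82 and 9.79 TPM, then Uchl1, Gap43, Hand2, Syp and Syt1 between 7.22 and 3.89 TPM. The remaining tested members averaged between 2.80 TPM (Nefl) and 0.871 TPM (Gfra2). Neighbours in this order overlapped from mouse to mouse, apart from the step between Vip and Stmn2: the lowest Vip value was 21.9 TPM and the highest Stmn2 value 15.6 TPM.

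No member passed the test of KO against WT colon. Across all genes tested, 4 of 10756 (0.0372%) passed the false discovery rate (FDR) of 0.05, and 0 of the 22 members did (limma, smallest FDR 1.00). At an unadjusted p below 0.05 there were also 0 of 22 members, against 3.1% of all genes. KO and WT ranges overlapped for 22 of 22 members, and 0.223% of all genes had ranges that did not. On the log2(TPM + 0.5) scale the log2 fold change of KO over WT was positive for 10 members and negative for 12, with a median of -0.01; 46.8% of all genes had a positive value, with a median of -0.01 as well. In the authors' deposited table, 26 transcripts of members carried a p-value, the smallest being 0.0989 for Gfra1, and the smallest q was 1.

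**Figure D1:**
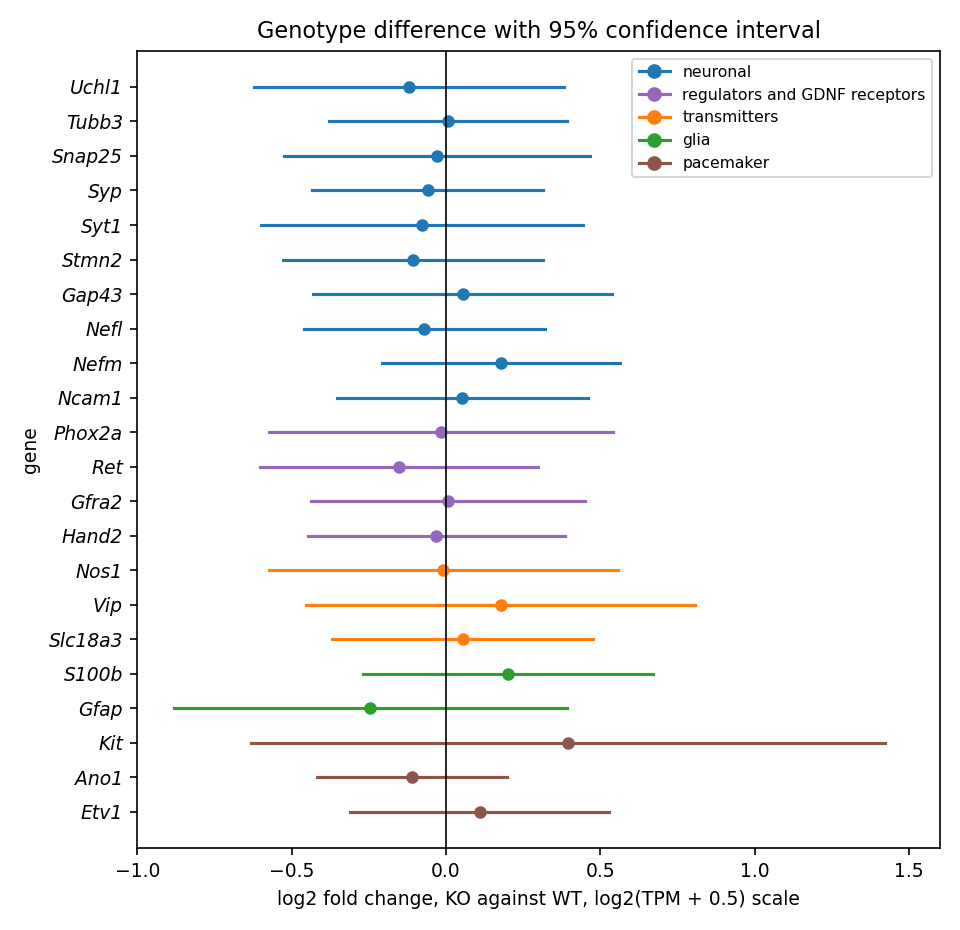
Log2 fold change of KO against WT for the 22 tested members (x axis, log2(TPM + 0.5) scale), with 95% confidence intervals from limma and colours by role. Every interval spans 0; those of 21 members stay within 1 log2 unit of 0, and that of Kit reaches 1.42.

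These intervals set what the 11 mice could show. For 21 of the 22 members the 95% confidence interval lay within -1 and 1 on the log2 scale, so smaller changes than that remain possible in each of them. The exception was Kit, at 0.39 ± 0.46 (SE), with an interval of -0.63 to 1.42. The narrowest standard error was 0.14, for Ano1.

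Among the neuronal members, the most abundant was Stmn2, which encodes stathmin-2, a microtubule-binding protein of growing and mature axons. Stmn2 had 6.35, 12.1, 13.0, 10.7 and 12.2 TPM in KO-1, KO-3, KO-4, KO-8 and KO-9, against a lowest of 8.79, a median of 10.8 and a highest of 15.6 TPM in WT mice. KO-1 was the lowest of the 11 mice, and the other 4 KO mice lay within the WT range. The means were 10.9 ± 2.66 TPM in KO (SD, n = 5) and 11.5 ± 2.69 TPM in WT (SD, n = 6), a log2 fold change of -0.11 ± 0.19 (SE; limma FDR 1.00). Snap25, part of the SNARE complex that fuses synaptic vesicles, had 5.25, 11.8, 10.9, 9.77 and 11.0 TPM in the KO mice in the same order, against 7.09, 9.57 and 13.4 TPM as lowest, median and highest in WT. Again only KO-1 fell below the WT range, and the log2 fold change was -0.03 ± 0.22 (limma FDR 1.00).

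None of the other neuronal members passed either. Tubb3, neuronal beta-III tubulin, had 9.92 ± 2.28 TPM in KO and 9.69 ± 2.25 TPM in WT, and the vesicle proteins Syp and Syt1 had 4.82 ± 0.967 and 3.79 ± 1.09 TPM in KO against 5.08 ± 1.26 and 3.98 ± 1.02 TPM in WT. Gap43, a protein of axon growth cones, had 6.10 ± 1.35 TPM in KO and 5.99 ± 1.87 TPM in WT. Uchl1, the deubiquitinase PGP9.5 used to stain enteric nerves, ran from 5.11 to 13.2 TPM in KO and from 4.65 to 11.4 TPM in WT; its high KO value came from KO-9 alone. The neurofilament genes Nefl and Nefm are neighbours on chromosome 14, where Nefl (68083863 to 68089095, plus strand, mm10) lies within the span of Nefm on the minus strand. Nefm had 1.40 ± 0.318 TPM in KO and 1.16 ± 0.151 TPM in WT, with the smallest p of the 22 members and a log2 fold change of 0.18 ± 0.17 (SE; limma FDR 1.00). Nefl had 2.73 ± 0.770 TPM in KO and 2.86 ± 0.405 TPM in WT.

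Ncam1, the neural cell adhesion molecule, is the member nearest to the targeted locus. It spans 49502136 to 49798925 on chromosome 9 (mm10), 5.42 Mb from Nrg4, while Elavl3, the only other member on that chromosome, lies 33.2 Mb away. Ncam1 had 1.22 ± 0.0740 TPM in KO and 1.202 ± 0.299 TPM in WT, a log2 fold change of 0.05 ± 0.18 (SE; limma FDR 1.00). Its spread in WT came largely from WT-7, at 0.618 TPM.

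Among regulators and receptors, Hand2, a transcription factor needed for enteric neuron differentiation, had 3.88, 5.61, 5.53, 6.24 and 7.12 TPM in KO-1, KO-3, KO-4, KO-8 and KO-9, against 3.32, 6.10 and 7.25 TPM as lowest, median and highest in WT. All 5 KO values lay inside the WT range, and the lowest value of all was that of WT-7. The log2 fold change of Hand2 was -0.03 ± 0.19 (limma FDR 1.00). Ret had 1.09, 1.95, 2.46, 1.96 and 2.61 TPM in the KO mice in the same order, against 1.41, 2.28 and 2.89 TPM in WT. KO-1 alone fell below the WT range, and the log2 fold change of Ret was -0.15 ± 0.20 (limma FDR 1.00). Phox2a, a homeodomain factor of autonomic neurons, had 1.102 ± 0.347 TPM in KO and 1.15 ± 0.596 TPM in WT, and Gfra2, the co-receptor for neurturin, 0.886 ± 0.233 TPM in KO and 0.859 ± 0.338 TPM in WT.

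No transmitter gene passed. Vip had 25.0, 47.6, 48.1, 44.2 and 31.7 TPM in KO-1, KO-3, KO-4, KO-8 and KO-9, against 21.9, 30.0 and 55.5 TPM as lowest, median and highest in WT. Every KO value lay within the WT range; the WT mice themselves split, with WT-2 and WT-5 at 50.7 TPM or more and the other 4 at 30.4 TPM or less. The log2 fold change of Vip was 0.18 ± 0.28 (SE; limma FDR 1.00). Nos1, the neuronal nitric oxide synthase of inhibitory motor neurons, had 1.52, 2.64, 3.82, 3.12 and 2.65 TPM in the KO mice in that order, against 1.74, 2.48 and 4.75 TPM in WT. Its log2 fold change was -0.01 ± 0.25 (limma FDR 1.00). Slc18a3, which loads acetylcholine into vesicles and lies within the span of Chat on the same strand of chromosome 14, had 1.58 ± 0.422 TPM in KO and 1.55 ± 0.384 TPM in WT.

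Of the glial members, S100b, a calcium-binding protein, had 1.69, 2.69, 2.20, 1.502 and 2.60 TPM in KO-1, KO-3, KO-4, KO-8 and KO-9, against 1.21, 1.82 and 2.48 TPM as lowest, median and highest in WT. The groups overlapped, with a log2 fold change of 0.20 ± 0.21 (limma FDR 1.00). Gfap, the intermediate filament of glia, had 1.23, 0.941, 2.20, 2.25 and 1.84 TPM in the KO mice in the same order, against 0.987, 2.13 and 3.45 TPM in WT. The lowest value was that of KO-3 and the highest that of WT-6, both from cage C, and the log2 fold change was -0.25 ± 0.29 (limma FDR 1.00). The signs of the glial pair thus differed, and neither passed.

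Of the pacemaker members, Ano1 and Kit varied in another way than Stmn2, whereas Etv1, like Stmn2, was lowest in KO-1 (0.888 TPM). Ano1 had 46.7, 32.0, 43.8, 29.9 and 39.1 TPM in KO-1, KO-3, KO-4, KO-8 and KO-9, against 32.9, 42.7 and 47.6 TPM as lowest, median and highest in WT. KO-3 and KO-8 lay just below the WT range, and KO-1, the lowest mouse for Stmn2, was the highest KO mouse for Ano1. Its log2 fold change was -0.11 ± 0.14 (limma FDR 1.00). Over the 11 mice Ano1 averaged 40.0 TPM, far above Kit (2.33 TPM) and Etv1 (1.44 TPM). The part of other cells of the full-thickness colon, such as epithelium, in the Ano1 values was not tested. Kit had 3.25, 5.07, 2.25, 1.38 and 1.03 TPM in the KO mice in that order, against 0.305, 1.90 and 3.88 TPM in WT. It was the most variable of the 22 members, with a coefficient of variation of 62.6% over the 11 mice and a ratio of 16.6 between KO-3, the highest, and WT-7, the lowest. Etv1, a transcription factor of interstitial cells of Cajal, had 1.51 ± 0.428 TPM in KO and 1.38 ± 0.290 TPM in WT. Kit also marks mast cells; of 7 mast cell markers only Cma1 was tested, it was at most 0.0513 TPM in KO-3, WT-5 and WT-6, and the summed level of the list ran from 0.704 to 8.65 TPM in KO and from 1.0998 to 7.97 TPM in WT. KO-3, the highest mouse for Kit, had the lowest mast cell sum. Cma1 reached 7.93 TPM in KO-4, and Mcpt1 ran from 0.103 to 1.37 TPM over the 11 mice. Tpsb2, too low to be tested, ran from 0.0842 to 0.237 TPM in KO mice and was at 0 TPM in WT mice. Of all genes tested, 0.223% had ranges that did not overlap. Other low mast cell markers had the lower mean in KO, with overlapping ranges. Mcpt2 had 0.161 TPM in KO and 0.290 TPM in WT, Cpa3 0.0286 and 0.0657 TPM, and Mcpt4 0.0184 and 0.0535 TPM. Fcer1a was at 0 TPM in all mice. The part of mast cells in the Kit values was not tested.

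**Figure D2:**
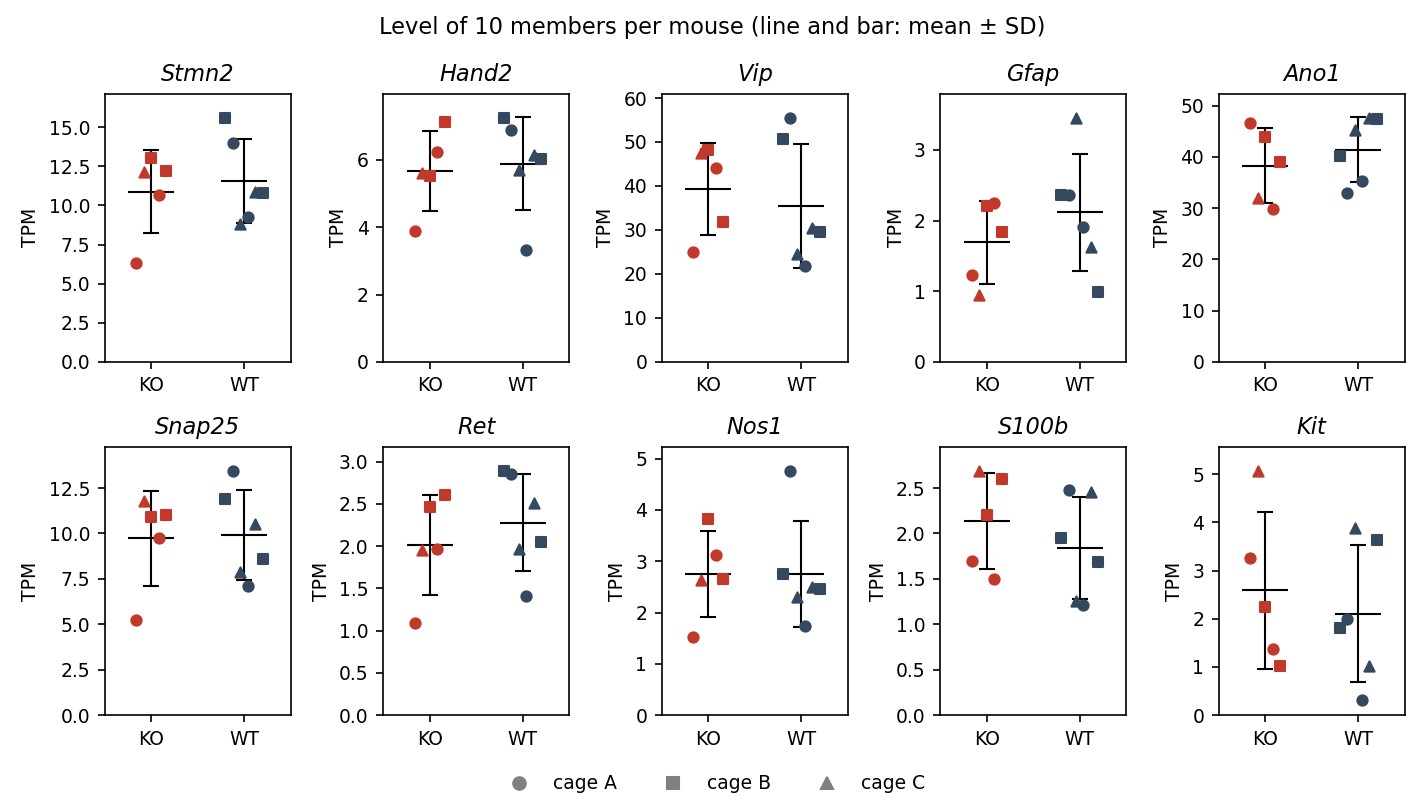
TPM of the 2 most abundant members of each role in 5 KO mice (left, red) and 6 WT mice (right, dark), with marker shapes for cages and the mean ± SD in black. KO and WT values overlap in each panel, and KO-1 and WT-7 (both cage A) hold the lowest values of several genes.

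Mice of one genotype differed among themselves across many members at once. Of the 22 tested members, 19 were below their 11-mouse mean in KO-1 and 20 in WT-7, where 46.4% and 45.9% of all genes tested were below theirs. These mice held the lowest value of 8 and 9 members. They also had the lowest mitochondrial shares of the summed TPM, at 19.0% in KO-1 and 19.1% in WT-7, against 20.7% to 42.9% in the other mice; the part of that share in the result was not tested. In WT-11 and WT-6, 16 and 14 members were below their mean, with 39.8% and 43.2% of all genes. At the other end, 18 members were above their mean in KO-4 and 17 in KO-9, with 53.4% and 45.8% of all genes. In WT-5 and WT-2, 21 and 17 members were above, with 55.1% and 52.0% of all genes. The median deviation over the 22 members, on the log2 scale, was -0.45, 0.08, 0.15, 0.03 and 0.21 in KO-1, KO-3, KO-4, KO-8 and KO-9, and between -0.45 (WT-7) and 0.26 (WT-5) in WT mice. The summed TPM of the 13 neuronal members was 37.8, 59.99, 63.7, 56.8 and 72.6 in the KO mice in that order, against a lowest of 41.4, a median of 58.3 and a highest of 75.7 in WT. KO-1 and WT-7 were both from cage A, which also held WT-5, so their low values were not shared by every mouse of the cage. Some members had their lowest cage mean in cage A, such as Stmn2 (10.1, 12.9 and 10.6 TPM in cages A, B and C) and Syp (4.26, 5.68 and 4.95 TPM). Others did not, such as Tubb3 (9.01, 11.5 and 8.59 TPM) and Phox2a (1.39, 0.927 and 1.05 TPM). The part of cage or sex in the low values of KO-1 and WT-7 was not tested.

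**Figure D3:**
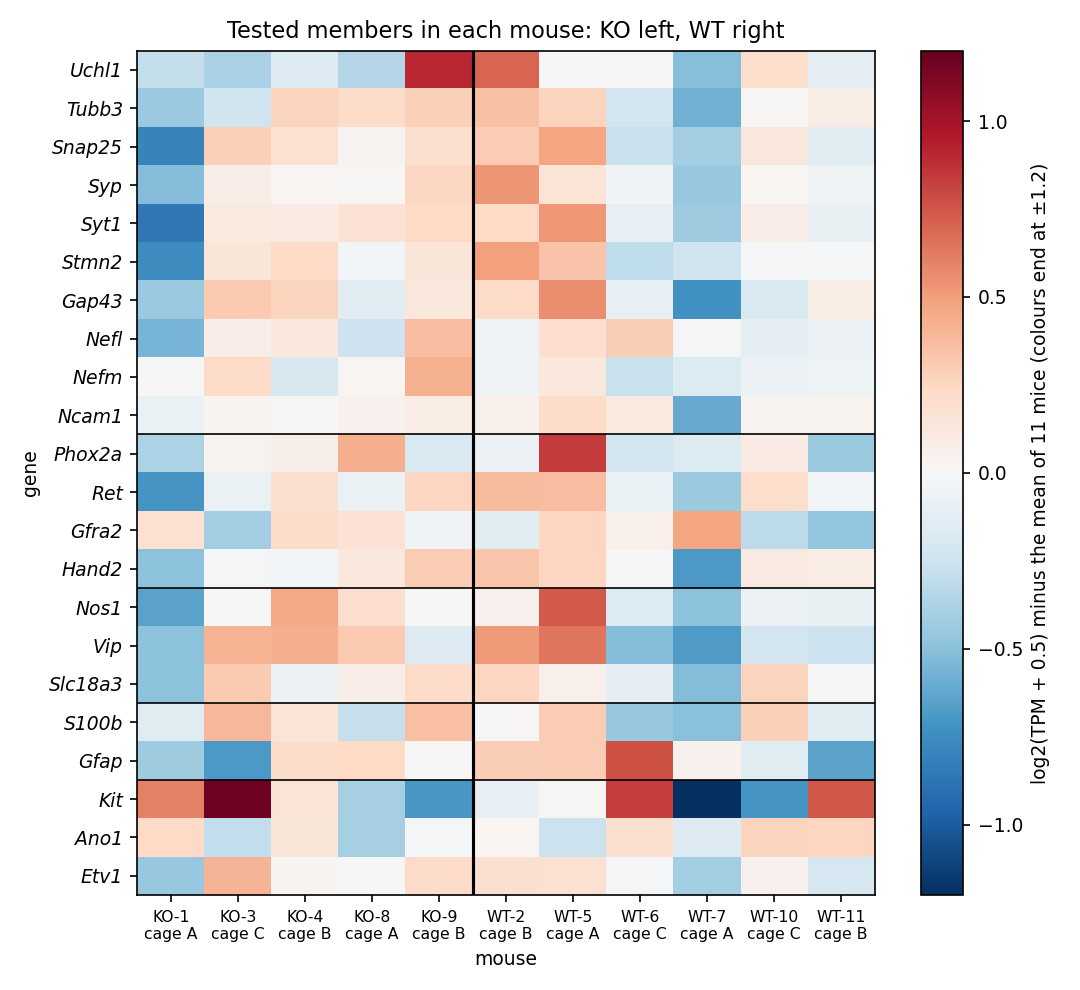
Log2(TPM + 0.5) of each tested member minus its mean over 11 mice, with 5 KO mice left of the line and 6 WT mice right of it, and roles separated by thin lines. The columns of KO-1 and WT-7 are blue for most neuronal rows, while the rows of Kit, Ano1 and Gfap follow other patterns.

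Levels of other cell types in those mice were set beside these values. The 9 smooth muscle markers in the table summed to 4678 TPM in KO-1 and 2819 TPM in WT-7, over ranges of 2651 to 4678 TPM in KO and 2819 to 5280 TPM in WT. KO-1 was thus the highest KO mouse for muscle, and WT-7 the lowest WT mouse. The 10 epithelial markers summed to 8931 TPM in KO-1 and 9582 TPM in WT-7, within ranges of 6844 to 10904 TPM in KO and 7085 to 11912 TPM in WT. Of enteroendocrine cells, which share Syp, Snap25 and other vesicle genes with neurons, the 11 markers summed to 415 TPM in KO-1 and 415 TPM in WT-7, the lowest values of their groups (KO range 415 to 715, WT range 415 to 661 TPM). The endothelial sum was 6.49 TPM in KO-1, within the KO range, and 1.63 TPM in WT-7, where it was lowest of all mice. The part of these cells in the neuronal levels was not tested.

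To see which members moved together, log2(TPM + 0.5) of each was compared with Stmn2, the most abundant neuronal member, over the 11 mice. There were 58 relations, 21 with members and 37 with every tested marker of 6 other cell types. The mice share cages and a TPM scale, and the comparison was chosen after the values had been seen. Relations with 9 members passed at an adjusted p of 0.05 by both Pearson and Spearman permutation tests: Snap25, Ret, Syt1, Syp, Vip, Tubb3, Nos1, Etv1 and Gap43. Over these 9, r ran from 0.773 to 0.943 (permutation p from 4.00e-05 to 0.00550, adjusted p from 0.00232 to 0.0354) and rho from 0.782 to 0.936 (permutation p from 6.00e-05 to 0.00636, adjusted p from 0.00348 to 0.0410). Snap25 was closest, with r = 0.943 and rho = 0.936 (permutation p = 4.00e-05 and 6.00e-05, adjusted p = 0.00232 and 0.00348). Slc18a3 passed by Pearson's r only, at 0.736 (permutation p = 0.00944, adjusted p = 0.0498), and its rho of 0.582 did not pass (permutation p = 0.0652, adjusted p = 0.291). Hand2 passed by neither, with r = 0.737 (permutation p = 0.0110, adjusted p = 0.0532) and rho = 0.627 (permutation p = 0.0438, adjusted p = 0.231).

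All 10 relations of members that passed by Pearson's r stayed positive when extreme mice were left out, some of them much smaller. Without KO-1 and WT-2, the mice farthest from the median of Stmn2, r for these 10 lay between 0.523 (Slc18a3) and 0.922 (Snap25), with 0.757 for Ret and 0.855 for Vip. Without KO-1 and WT-7, r lay between 0.412 (Slc18a3) and 0.863 (Snap25). Cages held 3 or 4 mice, too few for a value within each; with cage and genotype means removed, r ranged from 0.723 to 0.978.

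Of the remaining members, Uchl1, Nefl, Nefm, Ncam1, Phox2a and S100b had positive r between 0.270 and 0.566, Gfap 0.185, Kit -0.09, Gfra2 -0.24 and Ano1 -0.34 (permutation p from 0.0660 to 0.795, adjusted p from 0.239 to 0.941). Their rho ran from -0.24 to 0.655 (permutation p from 0.0336 to 0.736, adjusted p from 0.195 to 0.837). Without KO-1 and WT-2, r was 0.839 for S100b. With cage and genotype means removed, Ano1 stood at -0.83 and Phox2a at 0.910, given here as descriptions. Etv1, though a pacemaker gene, passed (r = 0.774, permutation p = 0.00472, adjusted p = 0.0354), whereas Kit and Ano1 did not.

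Among the markers of other cells, 1 of 37 passed by Pearson's r and none by Spearman's rho. It was Insl5, a peptide hormone gene of colonic enteroendocrine cells, with r = 0.758 (permutation p = 0.00631, adjusted p = 0.0366) and rho = 0.600 (permutation p = 0.0555, adjusted p = 0.268). Insl5 had 96.3, 163, 206, 205 and 209 TPM in KO-1, KO-3, KO-4, KO-8 and KO-9, against 97.5 TPM in WT-7 and 138 to 196 TPM in the other 5 WT mice, so KO-1 and WT-7 were the lowest mice for it as well. Of the 10 enteroendocrine markers 7 had positive r, over a range of -0.40 to 0.758 with a median of 0.387, and Scg2, Pcsk1 and Gcg stood at 0.659, 0.639 and 0.588 (permutation p = 0.0302, 0.0348 and 0.0548, adjusted p = 0.135, 0.144 and 0.212). Their rho was 0.373, 0.455 and 0.436 (permutation p = 0.261, 0.162 and 0.181, adjusted p = 0.541, 0.478 and 0.478). Without KO-1 and WT-2 the median r of the enteroendocrine list was -0.07, with Insl5 at 0.581 and Scg2 at -0.11. With cage and genotype means removed, r of the 37 markers ran from -0.69 to 0.828 (Gcg). Insl5 then stood at 0.733 and Scg2 at 0.723, within the range of the members that passed. The 8 smooth muscle markers had a median r of 0.0855, Acta2 among them at 0.151 (permutation p = 0.664, adjusted p = 0.870; rho = 0.327, permutation p = 0.326, adjusted p = 0.573), but a median of 0.661 without KO-1 and WT-2. The 10 epithelial markers had a median r of -0.20, and -0.12 without those mice. The 5 fibroblast and 3 endothelial markers had a median r of 0.190 and 0.266, but 0.589 and 0.685 without those mice. For the 9 neuronal members compared, the median r was 0.773, and 0.690 without those mice. Without them, likeness to Stmn2 was thus not particular to neuronal members. The part of enteroendocrine cells, muscle, fibroblasts and endothelium in the Stmn2 level was not tested.

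**Figure D4:**
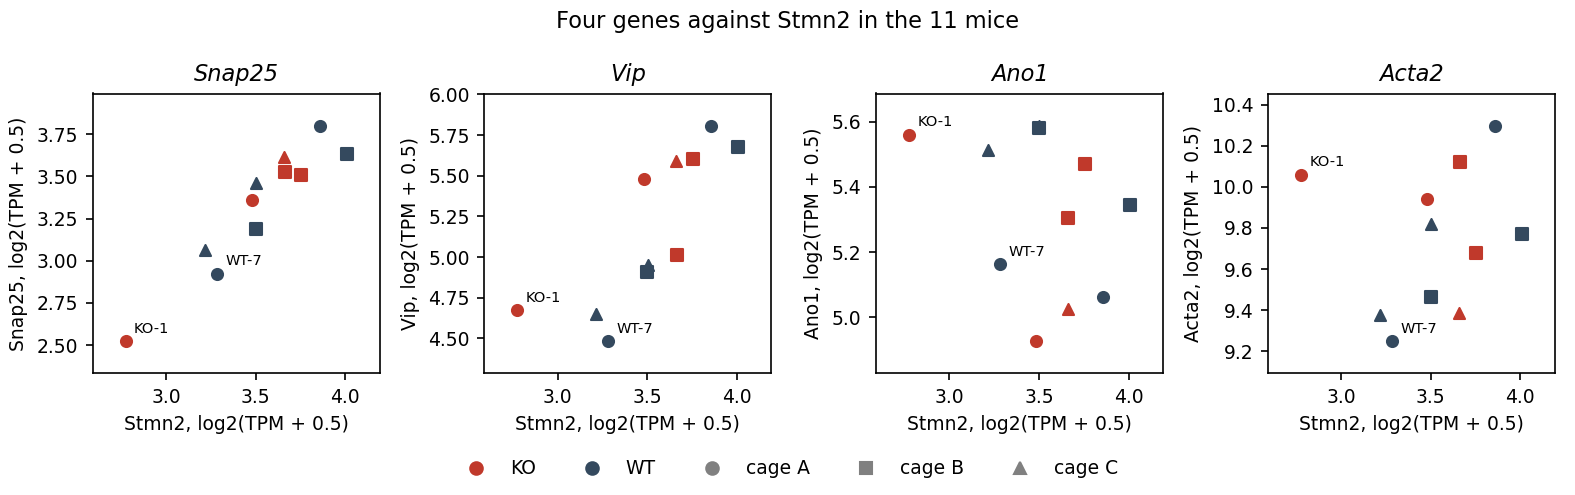
Log2(TPM + 0.5) of Snap25, Vip, Ano1 and Acta2 (y axes) against that of Stmn2 (x axes) in 5 KO mice (red) and 6 WT mice (dark), with marker shapes for cages. Snap25 (r = 0.943) and Vip (r = 0.799) rise with Stmn2, while Ano1 (r = -0.34) and Acta2 (r = 0.151, or 0.667 without KO-1 and WT-2) did not pass.

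Cages were compared next by an F test. None of the 22 members passed (limma; smallest FDR 0.482, for Uchl1), nor did any gene of the whole table (0%). At an unadjusted p below 0.05 there were 0 of 22 members, against 12.1% of all genes. Uchl1 had 5.58 ± 0.937 TPM in cage A (SD, n = 4), 9.26 ± 3.63 TPM in cage B (SD, n = 4) and 6.68 ± 1.46 TPM in cage C (SD, n = 3). Whether the genotype difference depended on cage was tested with an interaction term, which called 0 of 22 members (limma; smallest FDR 1.00) against 0.0186% of all genes; at an unadjusted p below 0.05 it was 0 of 22 against 3.97%. Vip had KO minus WT differences on the log2 scale of -0.07 within cage A, 0.01 within B and 0.79 within C, and Snap25 of -0.42, 0.11 and 0.35. In cage C the KO side is the single mouse KO-3.

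Related genes outside the 28 were taken from 7 further lists of 91 gene names, not all of them in the table, and 50 were tested. Of these, 34 had positive and 16 negative values, with a median of 0.06. Over all genes 46.8% were positive, with a median of -0.01. Of the related genes 0 passed (limma), against 0.0372% of all genes. Of 24 other neuronal and synaptic genes 12 were tested, 8 of them positive, with Syn1, which tethers vesicles, at 1.97 ± 0.588 TPM in KO and 1.66 ± 0.281 TPM in WT, and Sncg, gamma-synuclein, at 16.5 ± 2.92 and 14.5 ± 5.45 TPM. Of 21 other transmitter, peptide and transporter genes 14 were tested, 11 of them positive. Npy, neuropeptide Y, had 2.02 ± 0.799 TPM in KO and 1.30 ± 1.16 TPM in WT, and Chrnb4, a nicotinic receptor subunit of ganglia, 1.18 ± 0.339 and 1.51 ± 0.342 TPM (limma FDR 1.00 each).

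Of the GDNF and endothelin ligands and receptors 4 of 8 were tested, split 2 to 2, with Nrtn, which encodes neurturin, at 2.20 ± 1.27 TPM in KO and 1.84 ± 0.311 TPM in WT, and Ednrb, the endothelin receptor needed for colonisation of the gut by neural crest, at 1.02 ± 0.231 and 1.14 ± 0.472 TPM. Of other glial genes 6 of 12 were tested, 2 of them positive, with Gpm6b at 1.12 ± 0.778 TPM in KO and 0.499 ± 0.725 TPM in WT, and S100a4, also found in fibroblasts and immune cells, at 21.2 ± 9.89 and 22.1 ± 5.25 TPM. Of other genes of pacemaker and PDGFRA-positive cells 6 of 8 were tested, 5 of them positive. Thbs4, which encodes thrombospondin-4, had 149 ± 16.9 TPM in KO and 166 ± 9.67 TPM in WT (limma FDR 1.00), and P2ry1, a purine receptor, 6.93 ± 0.962 and 6.73 ± 0.794 TPM.

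On the receiving side, 6 of the 9 receptors and effectors of enteric transmitters found in the table were tested, 4 of them positive. Gucy1a1, a subunit of the guanylyl cyclase that nitric oxide activates, had 2.65 ± 0.551 TPM in KO and 2.03 ± 0.751 TPM in WT, and Chrm2, the muscarinic receptor of smooth muscle, 5.32 ± 0.836 and 4.41 ± 2.14 TPM; both groups overlapped for each. Of 7 neuregulins and ErbB receptors only Egfr (2.89 ± 0.225 TPM in KO and 2.58 ± 0.590 TPM in WT) and Erbb2 (29.8 ± 7.38 and 27.7 ± 2.74 TPM) were tested. Erbb3, a neuregulin receptor of glia and epithelium counted among the glial genes, was tested too (limma FDR 1.00) and had 45.5 ± 11.7 TPM in KO and 47.5 ± 7.02 TPM in WT. Erbb4, the receptor of neuregulin-4, was at most 0.00907 TPM in any mouse.

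In the lists of other cell types, 0 genes passed as well. All 8 tested smooth muscle markers had positive values of 0.02 to 0.18 (Mylk 0.17 ± 0.18, Lmod1 0.16 ± 0.19). Of 10 epithelial markers 4 were positive (Krt20 -0.09 ± 0.14, Krt8 -0.08 ± 0.15), of 5 fibroblast markers 4 (Col1a1 0.28 ± 0.18, Lum 0.24 ± 0.23), and the mast cell gene Cma1 stood at 0.32 ± 0.75. Of 10 tested enteroendocrine markers 8 were negative and 2 had an unadjusted p below 0.05, against 3.1% of all genes. These were Scg2, a granin also made by neurons, at 3.38 ± 1.79 TPM in KO and 5.84 ± 1.95 TPM in WT, and Pcsk1n, at 5.54 ± 2.28 and 7.44 ± 1.13 TPM (limma FDR 1.00 each). The 3 tested endothelial markers were positive, and Emcn had the smallest genotype p of all lists, below 0.05 unadjusted. Emcn had 2.51 ± 0.438 TPM in KO and 1.28 ± 0.430 TPM in WT, with ranges that did not overlap, as for 0.223% of all genes (limma FDR 1.00), and Cdh5 1.23 ± 0.318 and 0.819 ± 0.483 TPM.

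There were 5 members with several principal transcripts in the table. One transcript carried all of the TPM of Nos1 and Etv1, 97.1% of Syt1 and 95.9% of Gfra1. For Sox10 the shares over all mice were 65.4% and 34.6%, but the transcripts were hardly mixed within a mouse. The minor one was above 0 in 3 of the 11 mice, at 1.19, 1.38 and 0.999 TPM in KO-4, WT-10 and WT-11. In those mice the other was at most 0.00548 TPM. The Syt1 share differed in WT-7, where its transcripts had 1.46 and 1.22 TPM. On the first transcript alone WT-7 would fall below KO-1 (1.86 TPM), the lowest mouse for summed Syt1. Summing transcripts thus bears on Sox10, on Syt1 in WT-7 and on the counts of lowest values in KO-1 and WT-7.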

How the data were processed

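Polyadenylated RNA of full-thickness distal colon was read from stranded libraries as single-end reads of 75 nt, per the labels' protocols. The submitters' processing notes name kallisto, sleuth and CASAVA and the build mm10, without versions. The deposited table gives TPM per principal transcript and mouse, per the file headers, and the authors' p-value and q-value per transcript. It had 29213 rows; 405 repeated transcripts were dropped and TPM was summed per gene. The 10756 genes that reached 1 TPM in 5 or more mice were tested with limma 3.58.1 (R 4.3.3) on log2(TPM + 0.5) with a mean-variance trend, terms for genotype and cage, and p-values adjusted by Benjamini-Hochberg over all genes (threshold 0.05); cage and interaction terms had F tests. The script was tested on simulated data. Permutation tests used 100000 resamples and were two-sided. Positions are from GENCODE M21 and promoters from RefSeq (GRCm38.p6), searched on both strands; the CCAAT box was also counted as its reverse complement. Each mouse is labelled as its own sample.

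The members and lists were chosen with earlier results of these data known. Named genes are all members, and the 2 genes of smallest genotype p in every other list (1 where a single gene was tested). Values of every mouse are given for any member with an unadjusted p below 0.05 (there was none). They are also given for the 2 members of highest mean TPM in each role (in the text, WT mice by lowest, median and highest). The other members are given by range or mean. Erbb3, Erbb4, Fcer1a, Mcpt1, Tpsb2, Mcpt2, Cpa3, Mcpt4, Acta2, Insl5, Pcsk1 and Gcg were named after their values were seen. Genes of these lists that are not in the table used are not analysed here.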

Additional observations from a re-analysis of the deposited data

Results flagged for a closer look

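Gaps between 1 mouse and the rest of its group, relative to the group's range, passed Dixon's 95% critical value for 5 of the 44 groups checked (22 members in KO and in WT); chance flags about 1 in 20. In KO mice, Uchl1 stood high in KO-9 at 13.2 TPM and Syt1 low in KO-1 at 1.86 TPM. In WT mice, Ncam1 stood low in WT-7 at 0.618 TPM, while Phox2a and Nos1 stood high in WT-5 at 2.32 and 4.75 TPM. WT-5 also had the highest summed smooth muscle markers of the 11 mice (5280 TPM). The part of the muscle content in these values was not tested.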

How the results depend on the processing

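No member passed the genotype, cage or interaction test under any alternative run (cage and interaction were not refitted with no cage term, the muscle covariate, mitochondrial genes left out, or several mice left out); the smallest genotype FDR was 0.799, with cage A left out. Signs were not stable: of 431 member values under alternatives, 72 changed sign, none larger than 0.21 in size after the change. Kit (0.39 as reported) and Gfap (-0.25 as reported) were among the members that changed sign. Nefm, Ret, Etv1 and S100b kept theirs throughout. With 1 mouse left out in turn, the log2 fold changes of members that changed sign ran over Uchl1 -0.30 to 0.0081, Tubb3 -0.12 to 0.12, Snap25 -0.16 to 0.15, Syp -0.14 to 0.036, Syt1 -0.18 to 0.11, Stmn2 -0.24 to 0.042; Gap43 -0.094 to 0.27, Nefl -0.16 to 0.035, Ncam1 -0.082 to 0.15, Phox2a -0.12 to 0.17, Gfra2 -0.099 to 0.10, Hand2 -0.18 to 0.095; Nos1 -0.14 to 0.21, Vip -0.027 to 0.40, Slc18a3 -0.026 to 0.14, Gfap -0.46 to 0.010, Ano1 -0.24 to 0.028. The median over the members ran from -0.12 (without WT-7) to 0.14 (without WT-5); without KO-1 it was 0.11, with 17 of 21 positive. KO-1 and WT-7 were left out together, and cage A was left out, as alternatives chosen after seeing the data; the medians were -0.00043 and 0.09.

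Leaving out mitochondrially encoded genes moved the median of all genes from -0.01 to 0.09 and gave Snap25 0.073, Syp 0.039, Syt1 0.016, Nefl 0.023, Phox2a 0.065, Hand2 0.067, Nos1 0.085. In that run 9 of 22 members exceeded the new median of all genes. A smooth muscle covariate gave Tubb3 -0.061, Gap43 -0.014, Ncam1 -0.0052; leaving out KO-1 and WT-7 gave Tubb3 -0.024, Snap25 0.056, Syt1 0.0033, Gap43 -0.00043, Nefl 0.039, Ncam1 -0.055, Phox2a 0.031, Nos1 0.024, Kit -0.027; leaving out cage A gave Tubb3 -0.019, Snap25 0.21, Syt1 0.11, Stmn2 0.094, Nefl 0.19, Ncam1 -0.020, Nos1 0.19. Nos1 was 0.0063 with no cage term and 0.0021 with median-of-ratios factors. With no filter, the 6 low members did not pass (limma FDR 1.00 each; Gfra1 at -0.52 ± 0.30).

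Over all genes, the genotype test called 4, but 2 with no filter, 1 without cage A and 2 to 4 with 1 mouse left out. The cage test called 0, but 4 with no filter and 0 to 2 with 1 mouse left out. The interaction called 2, but 12 with a pseudocount of 0.1, 49 with no filter and 0 to 5 with 1 mouse left out. The cause was not tested. No paired analysis was possible because the KO and WT mice share no replicate numbers; cage was a term instead. TPM carries no depth, which limits what low members can show.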
